A study of Mus musculus with 10 samples.

Results

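Matrix metalloproteinases (MMPs), proteases of the ADAMTS family, the related ADAMTS-like proteins and the tissue inhibitors of metalloproteinases (TIMPs) were followed in cultured neural tube explants of mouse embryos. All protein-coding gene models named Mmp, Adamts, Adamtsl or Timp with a number were taken, which gave 49 genes of the 42465 models in the table. They comprised 21 MMP, 19 ADAMTS, 5 ADAMTS-like and 4 TIMP genes. The explants were Ednrb-/- or wild type (WT), with 5 biological replicates of each genotype, and held neural crest cells, the source of melanocytes and of the neurons and glia of the peripheral nervous system. Ednrb encodes the endothelin receptor type B, and the study asked how this receptor acts on the division of melanoblasts, which later become melanocytes. Explants of both genotypes came from embryos at embryonic day 9.5. They were kept for 4 days in DMEM with glutamine and gentamicin, to which EDN3, a peptide that binds this receptor, had been added at 20 nM together with 10% fetal bovine serum. The labels do not give the Ednrb allele, the strain, or how many embryos went into a replicate, so p-values measure the spread between these libraries.

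MMPs and ADAMTS proteases are zinc enzymes that cut proteins of the extracellular matrix, and most are made as inactive precursors. MMP2 is activated at the cell surface by the membrane-bound enzyme MMP14, with TIMP2 acting as the bridge between them, while an excess of TIMP2 blocks MMP14. TIMP3 inhibits several ADAMTS proteases as well as MMPs. Cells that leave the neural tube pass through a matrix rich in fibronectin, collagens and versican, which are substrates of these enzymes.

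Depth was similar across libraries, at 13022266 to 19532570 reads in Ednrb-/- and 13856545 to 16522842 in WT libraries, worked back from the deposited FPKM (fragments per kilobase of gene model, scaled to library size). Ednrb was at 5.89, 11.7, 7.83, 8.01 and 2.34 FPKM in Ednrb-/- replicates 1 to 5, and at 55.6, 55.5, 45.8, 43.8 and 60.7 FPKM in WT replicates 1 to 5. The labels and the targeted gene thus pointed the same way in all 10 libraries (two-sided exact permutation test, p = 0.00794, which is the lower limit for 5 against 5). The neural tube markers Sox2 and Nes were detected in every library, at 97.8 to 118 and 52.2 to 66.1 FPKM in Ednrb-/- and 61.2 to 130 and 69.8 to 106 FPKM in WT libraries. Sox2 overlapped between genotypes, whereas Nes was lower in every Ednrb-/- library than in any WT library.

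Of the 49 genes, 32 were measured at 0.5 FPKM or more in 5 or more libraries and entered the test with 15156 genes in all (limma on log2(FPKM + 0.5), Benjamini-Hochberg threshold 0.05). In Ednrb-/- explants 13 of them fell, 1 rose and 18 did not pass. Across all genes tested 13.0% fell and 6.53% rose. All 13 genes that fell did so by at least 2-fold, and the median log2 fold change (Ednrb-/- over WT throughout) was -0.80 over the 32 genes against 0.0048 over all genes tested. The genotypes did not overlap in any library for 7 of the lower genes and for the 1 higher gene, where 8.44% and 4.78% of all genes tested were lower or higher without overlap. Through the filter, 5 genes with a mean under 0.5 FPKM in Ednrb-/- libraries were tested because of their WT level, and 3 of these fell. Adamts15, which fell, and Mmp9 and Adamts19, which did not pass, had higher means but were also under 0.5 FPKM in most Ednrb-/- libraries. The counts thus describe the genes detected and not the families as a whole. The genes that fell were Mmp2, Mmp14 and Mmp23, 5 proteoglycan-cutting ADAMTS proteases, a pair of ADAMTS-like genes and 3 TIMPs, whereas no other ADAMTS protease passed the test.

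**Figure D1:**
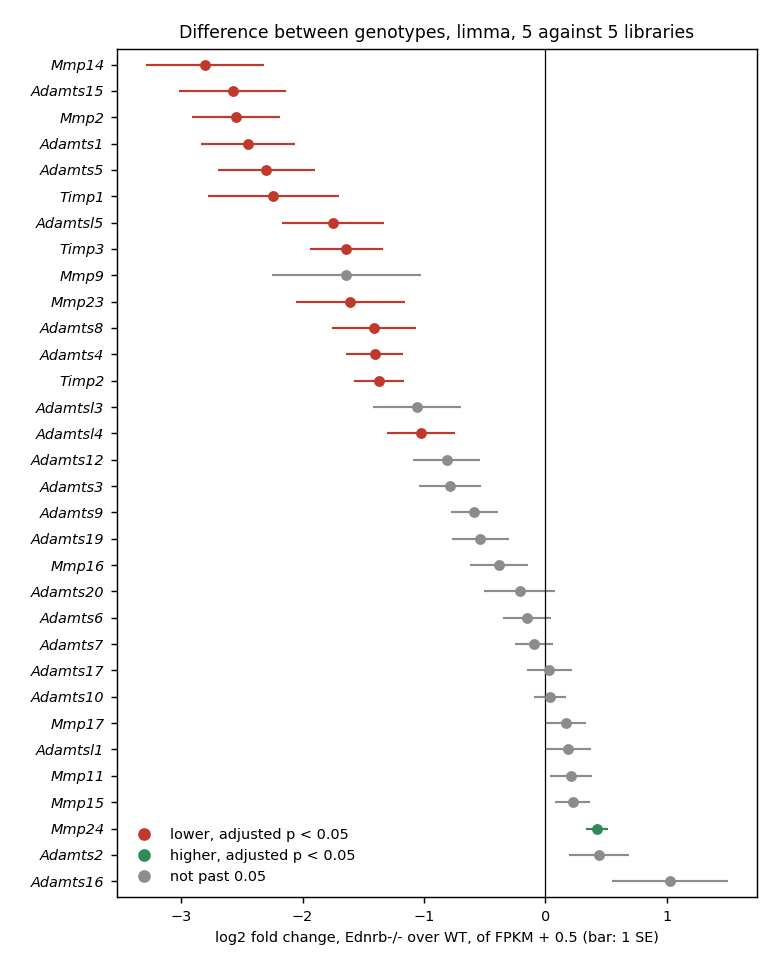
Log2 fold change (Ednrb-/- over WT) of FPKM + 0.5 for the 32 genes tested, with bars of 1 standard error. Points run from Mmp14 at -2.80 to Adamts16 at 1.02, and only Mmp24, at 0.42, lies above 0 among those past the threshold.

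Of the 17 genes below the filter, 8 lie close together in the genome. This run of 8 MMP genes on chromosome 9, between positions 4286008 and 4734263 (C57BL/6NJ, the assembly to which the deposited identifiers belong), holds in this order Mmp13, Mmp12, Mmp1b, Mmp3, Mmp8, Mmp27, Mmp20 and Mmp7. These encode collagenases, a stromelysin, macrophage elastase, matrilysin and the enamel protease MMP20. None of the 8 passed the filter, and together they drew 183 reads over the 10 libraries. The highest level was that of Mmp12, at 0.518 FPKM in WT replicate 4. Mmp27, Mmp20 and Mmp7 were listed at 0 in every library, where 3 reads in 1 library would be worth at most 0.216 FPKM. Mmp1a and Mmp10 were also sought but were not among the 49 genes taken, so the run may lack members.

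Short promoter motifs differed in frequency between this cluster and those detected genes for which a promoter was found. RefSeq promoters (GRCm38.p6, a different build from that of the table) were found for 34 of the 49 genes. Among these were 18 of the 32 tested genes and 8 of the 13 that fell, but not Mmp2. The 250 bases before the start were searched on both strands. The motifs were the AP-1 site TGANTCA, which jun and fos factors bind, the GC box GGGCGG, which Sp factors bind, the PEA3 site AGGAAG of ETS factors, and TATAAA. Windows were counted without a test, and some genes had more than 1. Among the 10 windows of the 8 cluster genes 6 held an AP-1 site, 5 held TATAAA, 7 held AGGAAG and 0 held a GC box. Among the 19 windows of 18 tested genes 0 held an AP-1 site, 1 held TATAAA, 4 held AGGAAG and 15 held a GC box. Of 32851 mouse promoter windows of the same length, 6.75% held the AP-1 site, 12.4% TATAAA, 29.5% AGGAAG and 32.7% the GC box. The median GC content was 40.2% in the cluster, 65.6% in the tested genes and 52.4% in all windows. Below the filter but outside the cluster 0 of 8 windows held the AP-1 site, 2 held TATAAA, 3 held AGGAAG and 5 held the GC box. For the AP-1 site and the GC box the contrast was thus between the cluster and the rest of the families. For TATAAA and AGGAAG the share in these 8 windows lay between those of the cluster and the tested genes. A match describes letters in the window and says nothing of binding. The 9 windows of 8 genes that fell held the AP-1 site in 0 and the GC box in 7 cases.

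The 6 windows below show both kinds, with 3 genes that fell, the gene that rose and a pair from the cluster. Capitals mark GC boxes, AP-1 sites and TATAAA on either strand, and 0 of these 14 matches overlapped a match to another motif. Each runs 5′ to 3′ on the gene's strand and ends at the base before the start.
Mmp14, chr14:54431348-54431597, plus strand: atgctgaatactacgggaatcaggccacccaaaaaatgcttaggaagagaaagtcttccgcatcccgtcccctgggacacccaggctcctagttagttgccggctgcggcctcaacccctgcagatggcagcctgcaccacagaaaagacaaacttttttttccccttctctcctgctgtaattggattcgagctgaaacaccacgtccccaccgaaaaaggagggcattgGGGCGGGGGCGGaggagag
Adamts1, chr16:85803114-85803363, minus strand: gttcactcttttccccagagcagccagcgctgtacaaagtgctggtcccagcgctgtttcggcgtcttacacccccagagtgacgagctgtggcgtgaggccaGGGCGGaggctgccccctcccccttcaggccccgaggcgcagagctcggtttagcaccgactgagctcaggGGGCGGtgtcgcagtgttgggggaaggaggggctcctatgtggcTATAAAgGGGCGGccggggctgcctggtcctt
Timp1, chrX:20869916-20870165, plus strand: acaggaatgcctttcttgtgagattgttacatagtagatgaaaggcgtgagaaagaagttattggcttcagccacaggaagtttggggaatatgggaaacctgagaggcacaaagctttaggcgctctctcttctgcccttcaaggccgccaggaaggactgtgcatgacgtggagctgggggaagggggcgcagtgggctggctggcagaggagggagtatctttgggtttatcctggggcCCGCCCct
Mmp24, chr2:155775092-155775341, plus strand: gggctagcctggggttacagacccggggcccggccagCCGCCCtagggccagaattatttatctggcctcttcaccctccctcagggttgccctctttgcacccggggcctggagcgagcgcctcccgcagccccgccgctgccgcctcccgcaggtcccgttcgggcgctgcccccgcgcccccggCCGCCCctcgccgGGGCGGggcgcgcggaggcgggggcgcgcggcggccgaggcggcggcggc
Mmp3, chr9:7445572-7445821, plus strand: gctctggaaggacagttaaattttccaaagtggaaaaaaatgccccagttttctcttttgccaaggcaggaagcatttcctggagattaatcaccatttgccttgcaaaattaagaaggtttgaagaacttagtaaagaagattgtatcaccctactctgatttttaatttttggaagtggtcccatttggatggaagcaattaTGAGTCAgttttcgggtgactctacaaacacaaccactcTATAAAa
Mmp13, chr9:7272264-7272513, plus strand: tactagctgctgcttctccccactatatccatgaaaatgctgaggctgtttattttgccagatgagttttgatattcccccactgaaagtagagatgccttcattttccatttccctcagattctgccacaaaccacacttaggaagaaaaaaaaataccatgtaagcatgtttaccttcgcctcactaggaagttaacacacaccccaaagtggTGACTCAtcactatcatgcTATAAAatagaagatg

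The gelatinase gene Mmp2 and the gene of its activator, Mmp14, were on average the most abundant MMP transcripts of WT explants, and both fell in Ednrb-/- explants. Mmp2 lies on chromosome 8 from 97609424 to 97637355 and encodes an enzyme that cuts collagen IV and denatured collagens. It had 14.2, 4.30, 6.22, 9.47 and 3.70 FPKM in Ednrb-/- replicates 1 to 5, and 54.4, 21.1, 62.5, 40.0 and 43.9 FPKM in WT replicates 1 to 5. Every Ednrb-/- library was below every WT library, and the lowest WT library was replicate 2. Mmp2 thus averaged 7.57 ± 4.31 FPKM in Ednrb-/- and 44.4 ± 15.7 FPKM in WT libraries (SD, n = 5 each; log2 fold change -2.55 ± 0.37 (SE), limma, adjusted p = 0.00276). Mmp9, the other gelatinase, stood at 3.33, 0.369, 0.154, 1.68 and 0.0498 FPKM in Ednrb-/- libraries, against 3.65, 0.566, 6.74, 4.75 and 4.04 FPKM in WT libraries. The genotypes overlapped, since Ednrb-/- replicate 1 was near the WT level and WT replicate 2 near the Ednrb-/- level, and the gene did not pass (log2 fold change -1.64 ± 0.62 (SE), limma, adjusted p = 0.0863). It passed without Ednrb-/- replicate 1 (0.0306), without WT replicate 2 (0.0185) and with array weights (0.0175).

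Membrane-type MMPs, which act at the cell surface, moved apart. Mmp14, on chromosome 14 from 50836333 to 50846840, was at 13.7, 5.76, 2.55, 9.54 and 1.77 FPKM in Ednrb-/- replicates 1 to 5, and at 40.2, 19.2, 61.1, 48.4 and 42.1 FPKM in WT replicates 1 to 5. No Ednrb-/- library reached the lowest WT library, and the log2 fold change of -2.80 ± 0.48 (SE) was the largest fall among the 32 genes on this scale (limma, adjusted p = 0.00412). With a pseudocount of 0.1 the fall of Adamts15, at -3.52, was larger than that of Mmp14, at -2.92. Mmp24, which encodes the mainly neuronal enzyme MT5-MMP that can cut N-cadherin, was the only gene that rose. It lies on chromosome 2 from 165331218 to 165375162. Its libraries read 18.1, 15.4, 18.6, 15.5 and 17.7 FPKM in Ednrb-/-, against 14.0, 13.4, 12.4, 11.7 and 11.4 FPKM in WT explants. All Ednrb-/- libraries were above all WT libraries by a small margin (log2 fold change 0.42 ± 0.09 (SE), limma, adjusted p = 0.00862), and the call held under all 20 alternatives run. The model overlaps BC029722 on the opposite strand over 637 bases, a gene at 3.10 ± 1.40 FPKM in Ednrb-/- and 3.76 ± 1.11 FPKM in WT libraries (SD, n = 5 each). Neuron markers moved with it: 5 of the 6 tested rose, and their summed level ran from 1347 to 1578 FPKM in Ednrb-/- and from 838 to 1133 FPKM in WT libraries. None of these markers was at 0 in all libraries, and their part in the rise of Mmp24 was not tested.

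The other membrane-type genes kept overlapping levels. Mmp15, which encodes MT2-MMP, had 30.0, 24.9, 28.8, 23.6 and 28.8 FPKM in Ednrb-/- replicates 1 to 5, and 19.6, 32.6, 20.3, 19.5 and 25.9 FPKM in WT replicates 1 to 5. WT replicate 2 was the highest of the 10 libraries, WT replicate 5 lay within the Ednrb-/- range, and the other 3 WT libraries lay below all Ednrb-/- libraries. The log2 fold change was 0.23 ± 0.14 (SE) (limma, adjusted p = 0.306), and without WT replicate 2 the gene passed (0.0468). Mmp17, a membrane-type MMP held by a lipid anchor, was at 3.18, 3.37, 3.60, 4.98 and 2.74 FPKM in Ednrb-/-, against 2.73, 3.91, 2.98, 2.55 and 3.34 FPKM in WT libraries. The ranges overlapped, and only Ednrb-/- replicate 4 lay above every WT library (log2 fold change 0.17 ± 0.16 (SE), adjusted p = 0.516), and Mmp16 had a log2 fold change of -0.38 (adjusted p = 0.293). Mmp25, the sixth of the group, was below the filter.

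Among the remaining MMPs, Mmp11 and Mmp23 were the ones detected. Mmp11, or stromelysin 3, which is activated inside the cell, had 11.0, 15.6, 17.1, 9.08 and 11.3 FPKM in Ednrb-/- libraries, against 13.5, 11.9, 9.32, 9.82 and 9.68 FPKM in WT libraries. The genotypes overlapped and the gene did not pass (log2 fold change 0.21 ± 0.17 (SE), limma, adjusted p = 0.439). Mmp23, which encodes a small type II membrane MMP, was at 1.34, 1.25, 1.33, 3.91 and 1.06 FPKM in Ednrb-/-, against 6.25, 1.49, 11.3, 9.28 and 6.30 FPKM in WT libraries. It fell, with overlap through Ednrb-/- replicate 4 and WT replicate 2 (log2 fold change -1.61 ± 0.45 (SE), limma, adjusted p = 0.0288). The call was lost with no filter (0.0618) and without any 1 of Ednrb-/- replicates 1, 2, 3 and 5 or WT replicates 1, 3, 4 and 5, at adjusted p values of 0.0537, 0.0617, 0.0639, 0.0684, 0.0509, 0.0746, 0.0744 and 0.0659 in that order. Mmp19, Mmp21 and Mmp28 stayed below the filter, with the highest value, 0.854 FPKM, in WT replicate 1 for Mmp19.

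**Figure D2:**
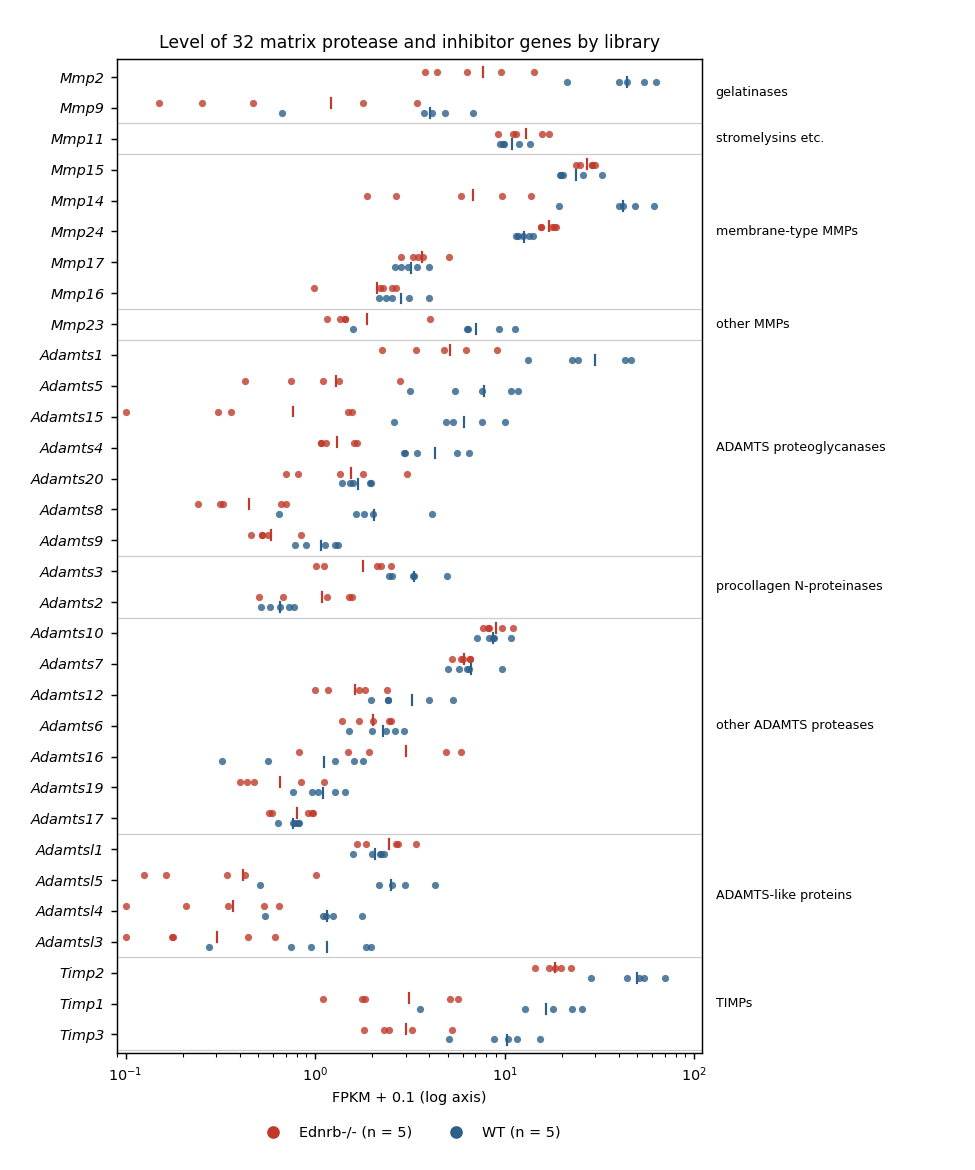
FPKM + 0.1 on a log axis in each library for the 32 genes tested, grouped by role, with Ednrb-/- libraries above WT libraries and a vertical bar at the mean of the 5 libraries. Mmp2, Mmp14, Adamts1 and Timp2 are separated between genotypes, whereas Mmp15, Adamts10 and Adamts7 overlap.

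Among ADAMTS proteases, only genes of the group that cuts versican, aggrecan and related proteoglycans passed the threshold. Of the 7 genes of this group, all tested, 5 fell and none rose. Adamts1, on chromosome 16 from 89230960 to 89240246, was the most abundant, at 4.71, 6.14, 3.30, 8.96 and 2.16 FPKM in Ednrb-/- replicates 1 to 5, against 22.6, 13.1, 46.5, 24.2 and 43.3 FPKM in WT replicates 1 to 5. The groups did not overlap (5.05 ± 2.65 and 29.9 ± 14.3 FPKM, SD, n = 5 each), and the log2 fold change was -2.45 ± 0.39 (SE) (limma, adjusted p = 0.00329). Adamts5, a main aggrecanase, whose model lies 62015 bases from that of Adamts1 on the same strand, showed 1.24, 1.00, 0.329, 2.70 and 0.649 FPKM in Ednrb-/-, against 5.40, 3.08, 11.6, 7.53 and 10.7 FPKM in WT libraries. It did not overlap between genotypes either (log2 fold change -2.30, limma, adjusted p = 0.00412).

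A second pair of neighbours, Adamts15 and Adamts8 on chromosome 9, lies 23912 bases apart on opposite strands, and both fell. Adamts15 was listed at 1.40, 0, 0.258, 1.47 and 0.208 FPKM in Ednrb-/- replicates 1 to 5, against 5.21, 2.50, 9.93, 4.82 and 7.47 FPKM in WT replicates 1 to 5. It had no read in Ednrb-/- replicate 2 and did not overlap between genotypes (log2 fold change -2.58 ± 0.44 (SE), limma, adjusted p = 0.00398; -4.24 by limma voom on the recovered reads). Adamts8 averaged 0.348 ± 0.214 FPKM in Ednrb-/- and 1.95 ± 1.28 FPKM in WT libraries (SD, n = 5 each), with a log2 fold change of -1.41 (limma, adjusted p = 0.0157; -2.36 by limma voom). It rests on 11 to 293 reads per library and was not tested at a filter of 1 FPKM.

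Adamts4, the other well-known aggrecanase, had 1.50, 1.04, 1.56, 0.971 and 0.978 FPKM in Ednrb-/- libraries, against 2.84, 2.88, 5.53, 3.36 and 6.39 FPKM in WT libraries. The genotypes did not overlap (log2 fold change -1.41 ± 0.23 (SE), limma, adjusted p = 0.00363). The closely related versican-cutting enzymes Adamts9 and Adamts20 did not pass, with log2 fold changes of -0.59 and -0.21 (adjusted p = 0.0542 and 0.657). Adamts9 passed without Ednrb-/- replicate 1 (0.0385), without WT replicate 1 (0.0457), with no trend in the prior variance (0.0182) and by limma voom (0.0132). Adamts20, the gene altered in belted mice, which lack pigment cells in a band of the trunk, was singled out for that role after its values were seen. It averaged 1.45 ± 0.957 FPKM in Ednrb-/- and 1.58 ± 0.263 FPKM in WT libraries (SD, n = 5 each).

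None of the 9 tested ADAMTS proteases outside the proteoglycan group passed. Of the procollagen N-proteinases, which trim fibrillar collagen precursors, Adamts3 was at 2.40, 0.905, 2.02, 2.13 and 1.02 FPKM in Ednrb-/-, against 2.44, 4.89, 3.22, 2.35 and 3.18 FPKM in WT libraries (log2 fold change -0.78, limma, adjusted p = 0.0514). Only Ednrb-/- replicate 1 reached into the WT range. It passed without Ednrb-/- replicate 1 (0.0371) or 4 (0.0458), at a filter of 1 FPKM (0.0494), by limma voom (0.0479) and, just inside the threshold, with a pseudocount of 1. Adamts2 had 0.405, 1.47, 1.06, 1.41 and 0.578 FPKM in Ednrb-/-, against 0.551, 0.676, 0.632, 0.418 and 0.475 FPKM in WT libraries, a log2 fold change of 0.44 (adjusted p = 0.245). Adamts14 did not pass the filter and peaked at 1.40 FPKM in WT replicate 3, the only gene below the filter with a library at 1 FPKM or more. It averaged 0.175 ± 0.111 FPKM in Ednrb-/- and 0.858 ± 0.421 FPKM in WT libraries (SD, n = 5 each), a difference that was not tested.

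Adamts10, which acts on fibrillin microfibrils, stood at 8.16, 8.04, 7.57, 11.0 and 9.55 FPKM in Ednrb-/- replicates 1 to 5, against 8.55, 7.09, 10.7, 8.67 and 8.14 FPKM in WT replicates 1 to 5. Adamts7, one of the enzymes that cut cartilage oligomeric matrix protein, showed 6.50, 5.17, 6.47, 5.94 and 5.78 FPKM in Ednrb-/-, against 4.95, 9.55, 6.24, 6.38 and 5.64 FPKM in WT libraries. Both overlapped between genotypes, with log2 fold changes of 0.04 ± 0.13 and -0.10 ± 0.15 (SE), and 2 standard errors around either value stayed well inside a 2-fold change. Adamts7 overlaps Tbc1d2b on the opposite strand over 6045 bases, a gene at 2.15 ± 0.384 FPKM in Ednrb-/- and 3.56 ± 0.774 FPKM in WT libraries (SD, n = 5 each). Adamts12, which shares that substrate, had 0.899, 1.72, 1.59, 2.29 and 1.07 FPKM in Ednrb-/-, against 2.32, 1.87, 3.91, 2.31 and 5.25 FPKM in WT libraries. It did not pass (log2 fold change -0.81, limma, adjusted p = 0.0599) but did without Ednrb-/- replicate 4 (0.0377), without WT replicate 2 (0.0342), with array weights (0.0252) and by limma voom (0.0435). Adamts6 was at 1.29, 2.36, 1.93, 2.41 and 1.61 FPKM in Ednrb-/-, against 1.90, 1.41, 2.85, 2.26 and 2.54 FPKM in WT libraries (adjusted p = 0.645). Adamts16 had the highest positive fold change of the 32 genes and varied widely between libraries, from 0.717 to 5.75 FPKM in Ednrb-/- and from 0.223 to 1.70 FPKM in WT libraries (log2 fold change 1.02 ± 0.48 (SE), adjusted p = 0.161). Adamts17 and Adamts19 had log2 fold changes of 0.03 and -0.54 (adjusted p = 0.927 and 0.134), and Adamts13 and Adamts18 were below the filter.

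ADAMTS-like proteins resemble ADAMTS enzymes without the protease domain and bind fibrillin microfibrils. Of the 4 that were tested, 2 fell and none rose. Adamtsl1 was at 1.57, 3.30, 2.56, 2.63 and 1.75 FPKM in Ednrb-/-, against 2.09, 1.90, 2.22, 1.49 and 2.12 FPKM in WT libraries, with overlap (log2 fold change 0.19, limma, adjusted p = 0.529). Adamtsl5 had 0.0642, 0.325, 0.243, 0.911 and 0.0249 FPKM in Ednrb-/-, against 2.07, 0.411, 4.20, 2.89 and 2.45 FPKM in WT libraries. Its fall (log2 fold change -1.75, limma, adjusted p = 0.0149) was overlapped by WT replicate 2 alone, and was -2.71 with a pseudocount of 0.1 and -3.48 by limma voom. At a filter of 1 FPKM Adamtsl5 was not tested.

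Adamtsl4 stood at 0.108, 0, 0.247, 0.542 and 0.434 FPKM in Ednrb-/-, against 0.997, 0.446, 1.67, 1.03 and 1.15 FPKM in WT libraries (log2 fold change -1.03, limma, adjusted p = 0.0258). Again WT replicate 2 lay inside the Ednrb-/- range. The call was lost without Ednrb-/- replicate 1 (0.0510), without WT replicate 3 (0.0737), 4 (0.0615) or 5 (0.0671) and under quantile normalization (0.0541). At a filter of 1 FPKM the gene was not tested. With 0 to 110 reads per library the size of its fall depended on the scale, at -1.85 with a pseudocount of 0.1, -1.68 after TPM rescaling and -2.62 by limma voom. Adamtsl3 had 0.340, 0, 0.0778, 0.517 and 0.0761 FPKM in Ednrb-/-, against 0.644, 0.176, 1.76, 1.86 and 0.853 FPKM in WT libraries and did not pass (log2 fold change -1.06, adjusted p = 0.0640). It passed without Ednrb-/- replicate 4 (0.0470), without WT replicate 2 (0.0140) and with array weights (0.0108). Adamtsl2 was below the filter.

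Inhibitor genes fell as well. All 3 TIMP genes that were tested fell, and Timp4 was below the filter. Timp2, on chromosome 11 from 126371136 to 126441159, was at 22.3, 18.4, 17.0, 19.8 and 14.4 FPKM in Ednrb-/- replicates 1 to 5, against 44.3, 28.6, 69.9, 51.1 and 54.5 FPKM in WT replicates 1 to 5. The genotypes did not overlap (18.4 ± 2.97 and 49.7 ± 15.1 FPKM, SD, n = 5 each), and the log2 fold change was -1.37 ± 0.21 (SE) (limma, adjusted p = 0.00305). Timp1, on chromosome X from 16184043 to 16188612, had 5.06, 1.73, 1.66, 5.60 and 0.993 FPKM in Ednrb-/-, against 17.8, 3.49, 25.4, 22.6 and 12.7 FPKM in WT libraries. WT replicate 2 lay below Ednrb-/- replicates 1 and 4, and the other WT libraries lay above all Ednrb-/- libraries (log2 fold change -2.24 ± 0.54 (SE), limma, adjusted p = 0.0144).

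Timp3, whose product stays bound to the matrix, was at 3.13, 2.21, 2.34, 5.17 and 1.72 FPKM in Ednrb-/-, against 8.69, 4.98, 15.3, 10.3 and 11.5 FPKM in WT libraries. Only Ednrb-/- replicate 4 and WT replicate 2 crossed (log2 fold change -1.64 ± 0.30 (SE), limma, adjusted p = 0.00485). The models of Timp1 and Timp3 lie wholly inside those of the synapsin genes Syn1 and Syn3 on the opposite strand, and whether reads were counted by strand is not stated. Syn1 had 24.3 ± 3.71 FPKM in Ednrb-/- and 18.4 ± 1.65 FPKM in WT libraries, and Syn3 had 1.07 ± 0.300 and 1.14 ± 0.372 FPKM in the same order of genotypes (SD, n = 5 each). The part of synapsin reads in these values was not tested.

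Mmp2, Mmp14 and Adamts1 fell by more than the inhibitor gene each was set against. Log2 ratios of FPKM + 0.5 were formed within each library for 4 pairs of genes that meet in activation or inhibition, none of them with Timp1, and compared by an exact two-sided permutation test adjusted over the 4. The ratio of Mmp2 to Timp2 was -0.64, -1.98, -1.38, -1.02 and -1.83 in Ednrb-/- replicates 1 to 5, and 0.29, -0.43, -0.16, -0.35 and -0.31 in WT replicates 1 to 5. It was lower by 1.18 in Ednrb-/- explants without overlap (exact permutation p = 0.00794, adjusted p = 0.0159). For Mmp14 over Timp2 the log2 ratios averaged -1.70 ± 0.90 in Ednrb-/- and -0.27 ± 0.20 in WT libraries (SD, n = 5 each), a difference of -1.43 without overlap (exact permutation p = 0.00794, adjusted p = 0.0159).

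For the activator and its target, which fell by similar amounts, no difference passed. For Mmp2 over Mmp14 the log2 ratios were 0.33 ± 0.65 in Ednrb-/- and 0.08 ± 0.25 in WT libraries (SD, n = 5 each; exact permutation p = 0.452, adjusted p = 0.452), with overlap. Adamts1 over Timp3 was 0.65 ± 0.40 in Ednrb-/- and 1.45 ± 0.27 in WT libraries, a difference of -0.81 (exact permutation p = 0.0159, adjusted p = 0.0212). Only Ednrb-/- replicate 2, at 1.29, reached into the WT range for this ratio. Timp1, which was in no pair, had a log2 fold change of -2.24, near those of Mmp2 and Adamts1 at -2.55 and -2.45.

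**Figure D3:**
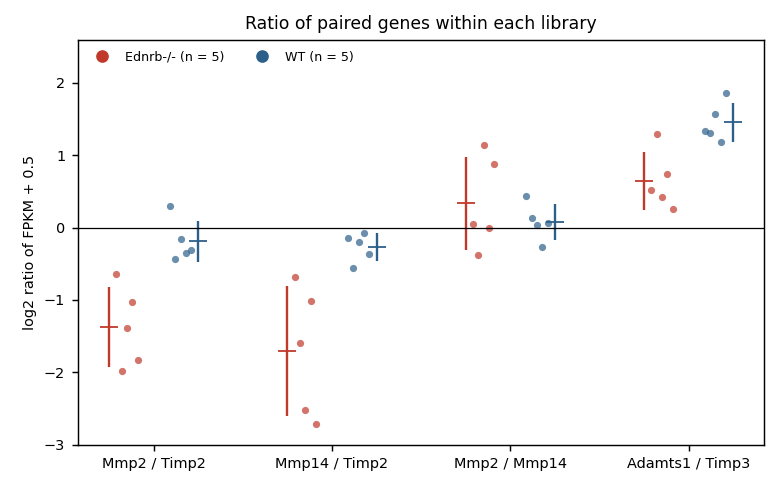
Log2 ratio of FPKM + 0.5 for 4 pairs of genes in each library, with Ednrb-/- libraries left of WT libraries and the mean ± SD of 5 libraries beside the points. The genotypes are separate for Mmp2 / Timp2 and Mmp14 / Timp2 and overlap for Mmp2 / Mmp14.

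Summed over the MMP, ADAMTS and TIMP genes, transcript levels were lower in every Ednrb-/- library than in any WT library, and the sums were differently composed. The 21 MMP genes summed to 69.5 to 97.5 FPKM in Ednrb-/- and 107 to 192 FPKM in WT libraries. Within that sum Mmp15 made up 34.2% ± 4.73 and Mmp24 21.4% ± 2.79 in Ednrb-/- libraries, against 16.7% ± 8.04 and 8.63% ± 2.33 in WT libraries. Mmp2 and Mmp14 made up 9.02% ± 3.95 and 7.90% ± 5.11 in Ednrb-/- libraries, against 28.5% ± 5.73 and 27.1% ± 5.86 in WT libraries (SD, n = 5 each). On average Mmp15 and Mmp24 thus led the MMP sum in Ednrb-/- and Mmp2 and Mmp14 in WT libraries, but not in each library. In Ednrb-/- replicate 2 Mmp11, at 21.6%, stood just above Mmp24, at 21.3%, and in WT replicate 2 Mmp15 led with 30.4%.

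The 19 ADAMTS genes summed to 28.4 to 46.8 FPKM in Ednrb-/- and 54.7 to 112 FPKM in WT libraries. Adamts10 led in Ednrb-/- libraries with 25.0% ± 4.85 of the sum, against 11.2% ± 2.30 in WT libraries, where Adamts1 led with 35.6% ± 7.48 against 13.4% ± 4.94 in Ednrb-/- libraries (SD, n = 5 each). The 4 TIMP genes summed to 17.3 to 30.8 FPKM in Ednrb-/- and 37.4 to 111 FPKM in WT libraries, and Timp2 made up the largest part in every library, from 60.7% to 83.3%. The 5 ADAMTS-like genes summed to 2.16 to 4.69 FPKM in Ednrb-/- and 2.99 to 9.99 FPKM in WT libraries, and here Ednrb-/- replicates 2, 3 and 4 lay above WT replicate 2. These sums and shares are descriptions without a test.

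**Figure D4:**
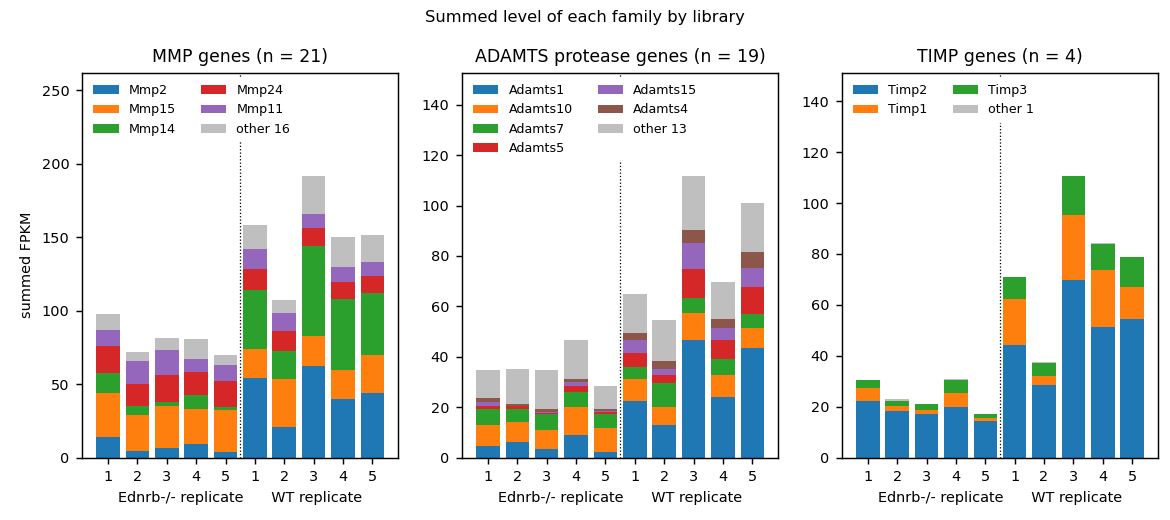
Summed FPKM of the MMP, ADAMTS and TIMP genes in each library as stacked bars, with Ednrb-/- replicates left of WT replicates. The MMP bars reach 69.5 to 97.5 FPKM in Ednrb-/- and 107 to 192 FPKM in WT libraries, and Mmp15 and Mmp24 take larger shares in Ednrb-/- libraries.

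The 13 genes that fell also ranked the libraries of each genotype in a similar order. Among Ednrb-/- libraries replicate 4 was the highest for 9 and replicate 5 the lowest for 9 of the 13 genes. Among WT libraries replicate 3 was the highest for 12 and replicate 2 the lowest for 12. Their mean log2(FPKM + 0.5) was 1.62, 1.06, 1.00, 1.95 and 0.73 in Ednrb-/- replicates 1 to 5, against 3.16, 2.14, 3.92, 3.35 and 3.45 in WT replicates 1 to 5. WT replicate 2 thus came nearest to the Ednrb-/- libraries, and without it 16 genes fell and 2 rose in place of 13 and 1. Mmp15 was the second that rose. Among all 32 genes tested, WT replicate 3 was the highest WT library for 19 and WT replicate 2 the lowest for 18. WT replicates 2 and 3 were also the least correlated WT pair over all genes tested, at 0.933. Whether the shared order is particular to the 13 genes was not tested.

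Markers of contractile cells were high and low in the same libraries, and those of fibroblast-like mesenchyme only in part. All 5 smooth muscle and myofibroblast markers tested fell, and the 6 markers found summed to 41.8 to 268 FPKM in Ednrb-/- and 310 to 2409 FPKM in WT libraries. Their mean log2(FPKM + 0.5) was 3.55, 3.21, 1.78, 3.64 and 1.76 in Ednrb-/- replicates 1 to 5, against 5.62, 3.67, 6.44, 6.08 and 5.69 in WT replicates 1 to 5. The highest and lowest libraries of each genotype were the same as for the 13 genes, and no marker was at 0 in all libraries, Myh11 being the lowest at 0.700 FPKM or less. Of the fibroblast-like markers 5 of 6 tested fell and 1, Dcn, rose, with sums of 39.4 to 106 FPKM in Ednrb-/- and 85.5 to 478 FPKM in WT libraries. Dcn alone gave 7.16 to 81.4 FPKM of the sum in Ednrb-/- and 3.08 to 9.49 FPKM in WT libraries. The mean log2(FPKM + 0.5) of these markers was 3.22, 1.67, 0.91, 1.74 and 0.66 in Ednrb-/- replicates 1 to 5, against 2.90, 2.39, 3.11, 3.03 and 2.85 in WT replicates 1 to 5. Ednrb-/- replicate 1 was thus above every WT library for this list, unlike for the 13 genes. The part of both lists in the lower protease and inhibitor levels was not tested, and in whole explants fewer cells of a type and less RNA per cell cannot be told apart.

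Neural crest, glia and melanoblast markers fell as well, 7 of 9 tested, with sums of 55.2 to 99.3 FPKM in Ednrb-/- and 100 to 257 FPKM in WT libraries. Their order among WT libraries was another one, with the lowest mean log2 level in replicate 4, at 3.11, and the highest in replicate 5, at 4.46. Macrophage markers were at or near 0, their 6 genes summing to at most 0.0647 FPKM in Ednrb-/- and 0.360 FPKM in WT libraries, with C1qa at 0 in every library. Endothelial markers summed to 0.416 to 1.42 FPKM in Ednrb-/- and 1.06 to 9.98 FPKM in WT libraries, and the only one tested, Kdr, fell. Epithelial markers summed to 1.38 to 16.2 FPKM in Ednrb-/- and 21.7 to 65.2 FPKM in WT libraries, and 3 of 3 tested, all keratins, fell. Of the other markers tested, 2 of 4 for cartilage and bone and 2 of 2 for skeletal muscle fell. Of 8 for neural tube progenitors 1, Nes, fell and 1, Fabp7, rose. Of 3 for notochord and floor plate 1, T, fell and 2 did not pass, with a median log2 fold change of 1.17 over the list. The part of these cell types in the protease and inhibitor levels was not tested.

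**Figure D5:**
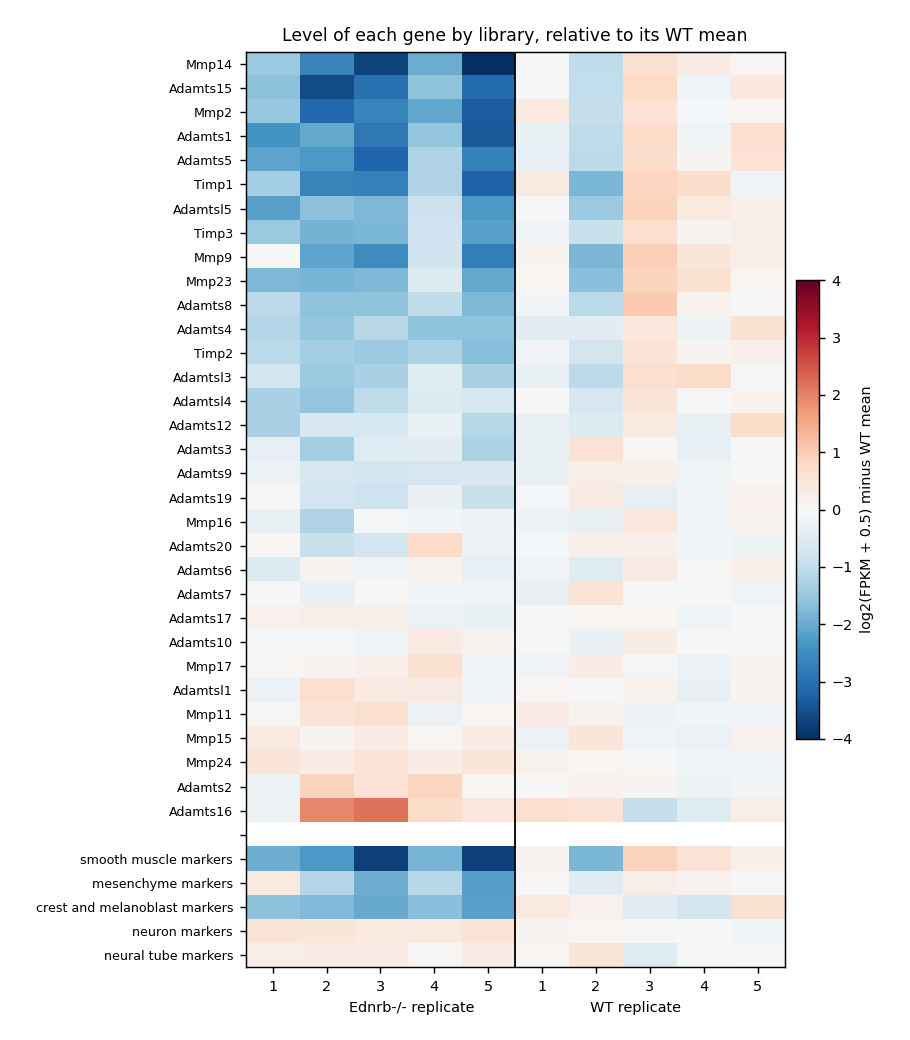
Log2(FPKM + 0.5) of each gene in each library minus its WT mean, with Ednrb-/- replicates left of WT replicates and genes sorted by fold change, above the mean level of 5 lists of cell type markers. WT replicate 2 is low and WT replicate 3 high for the upper genes and for the smooth muscle markers.

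Other genes that activate, inhibit or are cut by these enzymes were followed in 5 lists chosen with earlier results of these data known. Of the plasminogen activation genes 4 of 6 tested fell and none rose, with a median log2 fold change of -1.63. Serpine2, which encodes an inhibitor of plasminogen activators, averaged 13.9 ± 1.76 FPKM in Ednrb-/- and 30.7 ± 8.11 FPKM in WT libraries (SD, n = 5 each; log2 fold change -1.08, limma, adjusted p = 0.00412). Plat, the gene of tissue plasminogen activator, had 18.4 ± 3.55 FPKM in Ednrb-/- and 18.1 ± 2.23 FPKM in WT libraries and did not pass (adjusted p = 0.964).

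Among other activators and inhibitors 6 of 8 fell and none rose, with a median of -0.90. Cd63, a tetraspanin that binds TIMP1, and the tetraspanin gene Cd151 fell by 1.11 and 1.35 on the log2 scale (limma, adjusted p = 0.00276 and 0.00416). Bsg, an inducer of MMPs, had 189.9 ± 29.0 FPKM in Ednrb-/- and 214.9 ± 29.9 FPKM in WT libraries (SD, n = 5 each; limma, adjusted p = 0.362). In the list of astacin and other matrix proteases 8 of 10 fell and none rose, with a median of -1.43. The cathepsin genes Ctsl and Ctsb, of lysosomal proteases, had log2 fold changes of -0.76 and -0.83 (limma, adjusted p = 0.0178 and 0.00329). Bmp1, a procollagen C-proteinase, had -0.76 (adjusted p = 0.0368), and its call was lost without any 1 of Ednrb-/- replicates 1 (0.0754), 3 (0.0521) and 5 (0.0882) or WT replicates 1 (0.0548), 3 (0.0910), 4 (0.0855) and 5 (0.0794), with no filter (0.0731), no trend in the prior variance (0.0516) or a replicate block (0.0634).

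Of the ADAM sheddases, membrane proteases that release cell surface proteins, 4 of 9 fell and none rose, with a median of -0.38. Adam9 and Adam19 had log2 fold changes of -0.92 and -1.47 (limma, adjusted p = 0.0119 and 0.0112). Adam10 did not pass, at 53.5 ± 3.68 FPKM in Ednrb-/- and 70.9 ± 13.0 FPKM in WT libraries (SD, n = 5 each; adjusted p = 0.0556), but did without WT replicate 2 (0.00245) and with array weights (0.00649). Of the substrates 8 of 12 tested fell and none rose, with a median of -2.67. The most abundant were fibronectin (Fn1), the collagen I chain Col1a1 and the collagen IV chain Col4a1, at log2 fold changes of -3.41, -3.68 and -3.06 (limma, adjusted p = 0.00276, 0.00708 and 0.0104). The other 4 tested, Vcan, Ncan, Bcan and Reln, did not pass. Vcan, the versican gene, was singled out after its values were seen, and averaged 20.1 ± 4.71 FPKM in Ednrb-/- and 12.7 ± 3.85 FPKM in WT libraries (SD, n = 5 each; log2 fold change 0.66, limma, adjusted p = 0.0534). It passed as higher in Ednrb-/- explants without Ednrb-/- replicate 1 (0.0252), without WT replicate 5 (0.0317), under quantile normalization (0.0362), with a replicate block (0.0448) and by limma voom (0.0241). The substrates that fell were thus fibronectin, fibrillins and collagens, and versican was not among them. The collagen genes Col1a1, Col1a2 and Col3a1 were also counted among the fibroblast-like markers that fell, so these 2 lists are not separate.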

How the data were processed

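RNA of 10 explant cultures was extracted with TRIzol and sequenced after standard Illumina library preparation, per the labels' protocols. Tools named in the submitters' processing notes are featureCounts 1.5.0-p3, HISAT2 2.0.5 and fastp, and the build named there is mm10. The authors deposited FPKM, 1 column per library, and 0 further columns of sample values were present. Whether counting used strand is not stated. Identifiers are those of the C57BL/6NJ assembly, whose coordinates are printed as deposited. FPKM times gene length was a whole multiple of 1 step per library for 100% of values (within 0.01 read), which gave the reads.

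Genotypes were compared with limma 3.58.1 (R 4.3.3) on log2(FPKM + 0.5) with a trended prior variance and no covariate, for genes at 0.5 FPKM or more in at least 5 libraries, two-sided, adjusted by Benjamini-Hochberg over 15156 genes. The fit was tested on simulated data in which genes varied independently, so that test does not cover variation shared between genes of a library. Fold changes on this scale understate changes of low genes. Replicate pairs of 1 genotype correlated at 0.925 to 0.979 and differed by more than sampling noise, so each counted singly. Up to 4 tested genes per role with the highest mean over all libraries, and every gene that rose, are given by library, and up to 3 per further list are named. Some results this rule would name are not reported here. The genes and lists were chosen with earlier results of these data known. A planned count model was replaced by limma voom on the recovered reads, which was chosen after seeing the data. Promoters are RefSeq's, matched by symbol.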

Additional observations from a re-analysis of the deposited data

Results flagged for a closer look

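In 3 of 64 groups of 5 libraries, 1 library lay far from the other 4, where chance gives about 1 in 20. Mmp23 had 3.91 FPKM in Ednrb-/- replicate 4, against 1.06 to 1.34 FPKM in the other Ednrb-/- libraries. Adamts9 stood at 0.745 FPKM in Ednrb-/- replicate 1, against 0.356 to 0.466 FPKM in the others. Mmp16 was at 0.880 FPKM in Ednrb-/- replicate 2, against 2.09 to 2.58 FPKM in the others.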

How the results depend on the processing

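The number of family genes that fell, 13, ran from 11 to 16 over 20 alternatives, and the number that rose was 1 except for 2 without WT replicate 2. All 14 calls held with the replicate block, pseudocounts of 0.1 and 1, TPM rescaling, no trend in the prior variance, array weights and limma voom. At a filter of 1 FPKM 11 of the 14 held, since Adamts8, Adamtsl4 and Adamtsl5 did not enter that test. Over all genes the count of changes was 2956. It was 1877 with the replicate block, 4281 with array weights and between 1945 and 3276 with 1 library left out. The count of rises, 990, was 419 with the block, 659 with no filter, 1603 under quantile normalization, 1684 with array weights and 513 to 1150 with 1 library left out. Falls, 1966, then ran from 1432 to 2126 and were 1730 under quantile normalization. The replicate numbers are not taken as pairs: same-numbered libraries deviated together with correlations of -0.163 to 0.153. Sign flips over 5 pairs cannot pass, and gave adjusted p = 0.0833 for the differences of -1.18, -1.43 and -0.81 in the log2 ratios Mmp2 over Timp2, Mmp14 over Timp2 and Adamts1 over Timp3. With 1 library left out these ran from -1.36 to -1.03, from -1.69 to -1.18 and from -0.97 to -0.70, all past the threshold. Direction turned only for genes that did not pass. Under quantile normalization Adamts20, Adamts7 and Adamts6 were at 0.018, 0.026 and 0.011. Plat was at -0.0097 after TPM rescaling and -0.062 with array weights. With 1 library left out Plat ran from -0.072 to 0.102, Adamts17 from -0.020 to 0.104, Adamts10 from -0.041 to 0.112 and Adamts7 from -0.181 to 0.040. The cause was not tested. A planned quasi-likelihood count test was not run. Genes under about 1 FPKM rest on few reads, which limits their fold changes.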
